A study of Homo sapiens with 8 samples.

Results

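SOX proteins are transcription factors that bend DNA through an HMG box, and 9 genes of this family (SOX2, SOX4, SOX9, SOX11, SOX12, SOX13, SOX15, SOX17 and SOX21) were followed among the 19960 protein-coding genes listed in the files. The 9 genes were selected on the readout itself: they were put together because SOX4 moved in opposite directions when UHRF1 was knocked down in 2 related colon cancer lines. Their values in those knockdown comparisons are therefore a description and support nothing, and p-values are given for them only in the comparison of the 2 lines under the control hairpin, which the choice did not name.

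Poly(A) RNA was sequenced from 8 libraries in 4 groups of 2. HCT116 is a colorectal carcinoma cell line, and UF1hypo is a single clone made from it in which exon 4 of 1 UHRF1 allele was excised, so that the cells are UHRF1+/-. Each line carried either shScr, a control hairpin, or shUHRF1, a hairpin against UHRF1, delivered by lentivirus and held under puromycin selection as stable pools, and the control groups therefore also carried virus and drug. The labels name HCT116 as the cell line of all 8 libraries, do not give the day of harvest, and do not say whether the replicates came from separate cultures, so that p-values measure only the spread between these libraries. UHRF1 is the factor that brings the DNA methyltransferase DNMT1 to newly copied DNA, and UHRF1 loss is known to lower CpG methylation.

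UHRF1 stood at 87.5 and 98.4 TPM (length-scaled transcript units that sum to 1000000 in a library) under shScr against 31.7 and 32.7 under shUHRF1 in HCT116, and at 47.3 and 50.6 TPM against 34.1 and 21.1 in UF1hypo. Both hairpin groups thus lay below their own control, and the UF1hypo shUHRF1 libraries lay on either side of the HCT116 shUHRF1 ones. These are RNA levels and do not give the protein level. By Western blot, the study reported reduced UHRF1 protein in UF1hypo and a further sharp drop there on knockdown. DNMT1 ran from 147 to 204 TPM over the 8 libraries. Depth ran from 5.42 to 7.84 Gb of aligned bases per library. The UF1hypo shUHRF1 replicates stood apart from each other: replicate 1 was higher for GC-rich genes, with a Spearman rho of 0.814 between GC content and the replicate difference over 13781 genes, against -0.508 in UF1hypo shScr, -0.0417 in HCT116 shScr and -0.0680 in HCT116 shUHRF1. Of 8 colorectal epithelial markers, 6 were above 1 TPM in both libraries of every group, led by KRT8.

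The SOX family is divided into groups by sequence. SOX2 belongs to SoxB1 and holds stem and neural progenitor cells in an undifferentiated state, often together with a POU partner, while SOX21, of SoxB2, opposes it. SOX4, SOX11 and SOX12 form SoxC, single-exon genes known for progenitor survival, epithelial-mesenchymal transition and responses to TGF-beta. SOX9, of SoxE, marks the intestinal crypt and its Paneth cells, SOX13 is a SoxD protein that binds TCF partners, SOX15 is the only SoxG member, and SOX17, of SoxF, specifies endoderm and restrains WNT signaling.

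Of the 9 genes, 5 (SOX4, SOX9, SOX12, SOX13 and SOX15) were above 1 TPM in all 8 libraries and were tested, and 4 (SOX2, SOX11, SOX17 and SOX21) never reached 1 TPM and were not. SOX4 and SOX12, both of SoxC, were the 2 highest members in HCT116 shScr. SOX4 was picked for its knockdown values, so its contrast with SOX12 on knockdown is a description. The 250 bases before the start of these paralogues are shown, 5′ to 3′, from the RefSeq promoter table on GRCh38.p14, with every CpG in capitals. SOX4 lies on the plus strand and its stretch is chr6:21593501-21593750, and that of SOX12, also on the plus strand, is chr20:325302-325551.
SOX4: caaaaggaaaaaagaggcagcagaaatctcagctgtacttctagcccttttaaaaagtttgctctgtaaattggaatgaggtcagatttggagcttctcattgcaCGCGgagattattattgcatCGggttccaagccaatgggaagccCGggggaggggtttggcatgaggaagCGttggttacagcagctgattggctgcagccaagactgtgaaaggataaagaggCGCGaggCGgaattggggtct
SOX12: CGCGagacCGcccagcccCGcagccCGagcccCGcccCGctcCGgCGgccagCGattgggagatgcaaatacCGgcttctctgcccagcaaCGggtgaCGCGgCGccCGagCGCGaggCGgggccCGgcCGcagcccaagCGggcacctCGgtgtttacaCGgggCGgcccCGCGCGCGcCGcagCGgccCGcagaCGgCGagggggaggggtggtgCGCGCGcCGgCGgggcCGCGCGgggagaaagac
The SOX4 stretch held 8 CpG and the SOX12 stretch held 42. With the 50 bases after the start included, SOX4 had 8 CpG in 300 bases and a GC content of 49.3%, and SOX12 had 54 CpG and 80.3%, against a median of 14 CpG and 58.7% over 35116 RefSeq promoters of the same length. Promoter windows were also found for SOX2, with 20 CpG, SOX13, with 15, and SOX21, with 15. No methylation was measured in these libraries, so the letters describe the windows only.

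SOX4 (ENSG00000124766.7, GRCh38 chr6:21593751-21598619, plus strand, 1 exon of 4869 bases) had 42.9 and 40.8 TPM in HCT116 shScr and 107 and 100.3 TPM in HCT116 shUHRF1. It had 22.2 and 20.2 TPM with shScr and 6.11 and 8.81 TPM with shUHRF1 in UF1hypo. No 2 of the 4 groups overlapped, and the order ran from HCT116 shUHRF1 through HCT116 shScr and UF1hypo shScr down to UF1hypo shUHRF1. These values rested on 96622 to 1793392 aligned bases per library.

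With the knockdown, mean SOX4 TPM was thus 2.48 times higher in HCT116 and 2.84 times lower in UF1hypo. On the log2(TPM + 1) scale, the difference was 1.29 ± 0.20 (SE, n = 2 libraries per group) in HCT116 and -1.41 ± 0.19 in UF1hypo, and the UF1hypo effect minus the HCT116 effect was -2.70 ± 0.27. These SEs rest on 1 spread shared by all groups. With the libraries of each comparison alone, the SE was 0.099 in HCT116 and 0.28 in UF1hypo. By size of change, SOX4 ranked 43 from the top of 12704 genes in HCT116, 55 from the bottom of 13620 in UF1hypo, and 6 from the bottom of 13781 for the difference. Over the alternative settings run, the value lay between 1.24 and 1.36 in HCT116 and between -1.64 and -1.17 in UF1hypo.

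Few genes shared this pattern of signs at that size. Of 12543 genes tested in both lines, 79 were above 1 in log2 fold change in HCT116, 202 were below -1 in UF1hypo, and 9 met both conditions, SOX4 among them. The other named ones, singled out after their values were seen, were ARID5B, a chromatin regulator, with 1.30 in HCT116 and -1.17 in UF1hypo, TMSB15A, a thymosin, with 1.09 and -1.57, and METTL7A, a methyltransferase-like protein, with 1.32 and -1.19. The reverse pattern was found for 6 genes, and 38 genes were above 1 in both lines. None of these counts was tested, and SOX4 was picked for this pattern.

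SOX12 (ENSG00000177732.9, chr20:325552-330224, plus strand, 1 exon), the nearest expressed relative of SOX4, had 52.3 and 50.7 TPM under shScr against 47.6 and 51.7 under shUHRF1 in HCT116, and 40.6 and 41.9 TPM against 38.8 and 29.7 in UF1hypo. The HCT116 groups overlapped, and the UF1hypo hairpin libraries both lay below the UF1hypo controls by a margin smaller than their own spread. The log2 fold change was -0.05 ± 0.18 in HCT116 and -0.27 ± 0.17 in UF1hypo. The HCT116 value ran from -0.11 to 0.0059 when 1 library was left out, and the UF1hypo value was -0.46 without UF1hypo shUHRF1 replicate 1 and -0.087 without replicate 2. Its transcript has 62.2% GC, above 90.0% of protein-coding genes. After a correction for transcript GC content and then transcript length (below, the GC correction), the UF1hypo value became -0.59. SOX11 (chr2:5692384-5701385, plus strand), the remaining SoxC gene, was listed at 0 in all 8 libraries.

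SOX9 (ENSG00000125398.8, chr17:72121020-72126416, plus strand, 3 exons) had 36.6 and 25.6 TPM under shScr against 34.6 and 39.1 under shUHRF1 in HCT116, and 34.7 and 31.3 TPM against 61.9 and 59.9 in UF1hypo. The first 3 groups overlapped one another, and both UF1hypo shUHRF1 libraries lay above every other library. Mean SOX9 TPM was 1.85 times higher with the knockdown in UF1hypo. The log2 fold change there was 0.87 ± 0.20 and lay between 0.73 and 0.94 in every alternative run. In HCT116 it was 0.26 ± 0.20, with 0.51 without HCT116 shScr replicate 1 and 0.0050 without replicate 2. The difference between the lines was 0.61 ± 0.28, with 0.36 and 0.86 without the same libraries.

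SOX15 (ENSG00000129194.8, chr17:7588178-7590094, minus strand) was the lowest of the expressed members in HCT116 and in UF1hypo shScr. It had 6.15 and 3.57 TPM under shScr against 4.45 and 4.25 under shUHRF1 in HCT116, and 3.63 and 2.05 TPM against 11.0 and 6.45 in UF1hypo. The UF1hypo shUHRF1 libraries were the 2 highest of all 8. With the knockdown, mean SOX15 TPM was 3.07 times higher in UF1hypo, with a log2 fold change of 1.33 ± 0.33, against -0.10 ± 0.33 in HCT116. The UF1hypo value ran from 0.99 without UF1hypo shUHRF1 replicate 1 to 1.67 without replicate 2, and the HCT116 value was 0.23 without HCT116 shScr replicate 1 and -0.42 without replicate 2. The SOX15 transcript has 62.0% GC and 1320 bases, and it was higher in the UF1hypo shUHRF1 replicate in which GC-rich genes were higher. After the GC correction, which also adjusts for transcript length, the value was 1.06. The parts of GC content and length in that shift were not tested. Of its 1465 exonic bases, 35 are shared with MPDU1 on the opposite strand, which had 64.9 to 115 TPM, and the strand setting of the counting was not given in the sources used here, so reads over those bases cannot be told apart.

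SOX13 (ENSG00000143842.15, chr1:204073115-204127743, plus strand, 14 exons in its main transcript) had 21.7 and 19.6 TPM under shScr against 18.5 and 19.5 under shUHRF1 in HCT116, and 20.3 and 23.8 TPM against 28.0 and 21.0 in UF1hypo. The log2 fold changes were -0.11 ± 0.20 in HCT116 and 0.14 ± 0.20 in UF1hypo. The UF1hypo value turned to -0.17 after the GC correction and was -0.062 without UF1hypo shUHRF1 replicate 1 and 0.34 without replicate 2.

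In the comparisons across all genes, a gene was called when the Benjamini-Hochberg adjusted p of limma over all genes tested was under 0.05 and the absolute log2 fold change was over 1. By this rule 0 of the 5 tested members were called on knockdown in HCT116, where 0.0708% of all genes tested were called. In UF1hypo 2 were called, SOX15 higher and SOX4 lower, where 8.53% of genes were called, and 1 was called for the difference between the lines, SOX4, where 5.09% were called. The hairpin groups did not overlap the controls for 2 of 5 members in HCT116 (SOX4 and SOX13) and 4 of 5 in UF1hypo (all but SOX13), while 49.4% and 48.9% of all genes tested did not overlap. The median log2 fold change of the 5 was -0.05 in HCT116 and 0.14 in UF1hypo, beside -0.03 and 0.04 over all genes. These comparisons chose the members, so the counts only describe them: they are no test, and nothing is read from them.

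**Figure D1:**
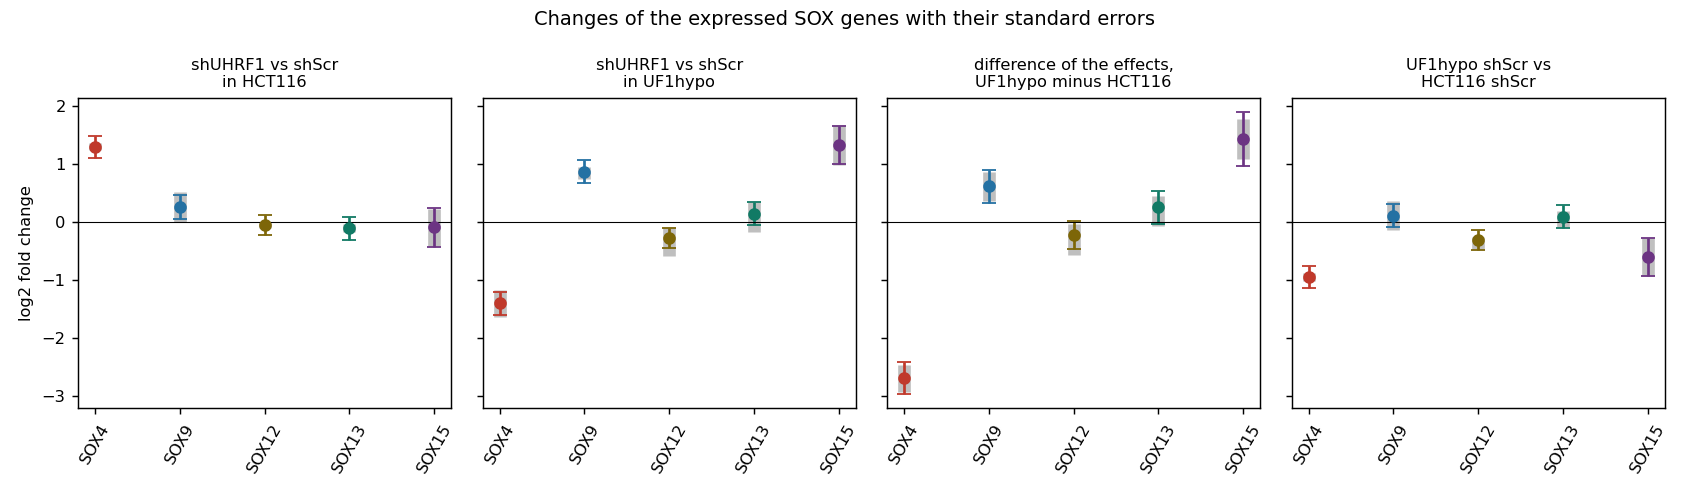
Log2 fold change (y axis) of the 5 expressed SOX genes for each knockdown, for the difference of the knockdown effects, and for UF1hypo shScr against HCT116 shScr, with dots at the fitted value, error bars of 1 SE and grey bars over the range of all alternative settings. SOX4 is at 1.29, -1.41, -2.70 and -0.95 from left to right, and no grey bar of SOX4 reaches 0.

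Under the control hairpin, the question was whether the heterozygous clone already differed from HCT116 in SOX expression. This comparison uses the same shScr libraries as the knockdown comparisons and is not independent of them. SOX4 was 1.98 times lower in mean TPM in UF1hypo, with a log2 fold change of -0.95 ± 0.20 (limma, adjusted p = 0.0289), and both UF1hypo libraries lay below both HCT116 libraries. The fold stayed under the size needed for a call. The adjusted p was 0.0632 with the replicate block and 0.153 to 0.261 when any 1 of the 4 shScr libraries was left out. SOX12 was also lower without overlap, by a log2 fold change of -0.31 ± 0.18 (limma, adjusted p = 0.395), which became -0.47 after the GC correction (limma, adjusted p = 0.0181).

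The other expressed members overlapped between the shScr groups. The log2 fold change was -0.61 ± 0.33 for SOX15 (limma, adjusted p = 0.379), 0.10 ± 0.20 for SOX9 (limma, adjusted p = 0.824) and 0.09 ± 0.20 for SOX13 (limma, adjusted p = 0.855). The SOX15 value ran from -0.93 without HCT116 shScr replicate 2 to -0.28 without replicate 1. With the GC correction it was -0.81 (limma, adjusted p = 0.085). Adding the replicate block to that correction kept the value (limma, adjusted p = 0.0391), and the block alone gave -0.61 (limma, adjusted p = 0.296). In all, 0 of the 5 tested members were called, beside 3.54% of genes, and 2 of 5 did not overlap, beside 66.4% of genes.

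TPM is scaled by transcript length, so the levels of the 5 genes may also be ordered within a group. In HCT116 shScr the mean TPM ran from SOX12 (51.5) through SOX4 (41.8), SOX9 (31.1) and SOX13 (20.7) to SOX15 (4.86), and no neighbours in this order overlapped. In HCT116 shUHRF1 SOX4 came first with 103.8, ahead of SOX12 with 49.7, and the rest of the order was the same, again without overlap. In UF1hypo shScr SOX12 (41.3) and SOX9 (33.0) led, and SOX13 (22.0) and SOX4 (21.2) overlapped. In UF1hypo shUHRF1 SOX9 led with 60.9 TPM, SOX12 (34.3) and SOX13 (24.5) followed, and SOX15 (8.71) and SOX4 (7.46) overlapped at the bottom.

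SOX4 made up 26.9% and 29.1% of the summed TPM of the 5 genes in HCT116 shScr and 50.5% and 46.7% in HCT116 shUHRF1. Its share was 18.3% and 16.9% with shScr and 4.19% and 7.0% with shUHRF1 in UF1hypo. SOX9 held 42.5% and 47.6% in UF1hypo shUHRF1, and between 16.3% and 28.6% in the 6 other libraries. The most abundant expressed SOX gene was therefore SOX4 in one knockdown group and SOX9 in the other.

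The developmental members were at or near 0. SOX2 (chr3:181711925-181714436, plus strand) was listed at 0 in 7 libraries and at 0.112 TPM, from 787 aligned bases, in HCT116 shScr replicate 2. SOX17 (chr8:54457935-54460892, plus strand) was listed at 0.134 TPM in HCT116 shUHRF1 replicate 2 and 0.0425 TPM in UF1hypo shUHRF1 replicate 2, from 771 and 300 aligned bases, and at 0 in the other 6 libraries. SOX21 (chr13:94709622-94712545, minus strand), like SOX11, was listed at 0 throughout. None of these 4 genes was above 1 TPM in any of the 8 libraries.

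RNAs named for the SOX loci were scarce. SOX2-OT, which runs over SOX2, was listed at 0 except for 0.144 TPM in UF1hypo shUHRF1 replicate 2. SOX21-AS1 was at 0 in all libraries, and SOX9-AS1, which shares no exon with SOX9, ran from 0.470 to 1.05 TPM. ROCR, an RNA upstream of SOX9, was listed at 0.229 and 0.237 TPM in the UF1hypo shUHRF1 libraries and at 0 in the other 6. These values are near the floor. More genes of any kind were listed above 0 in the UF1hypo shUHRF1 libraries (28056 and 28412) than in the other 6 (23393 to 26016). An antisense RNA that shares 168 exonic bases with SOX4 was listed at 0 in all 8 libraries.

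Of 10 other SOX genes, SOX1, SOX3, SOX5 and SOX14 were listed at 0 throughout, and SOX7, SOX10 and SOX30 did not exceed 1.46 TPM. SOX6 ran from 0.542 to 1.59 TPM and was not called. SOX18, a SoxF relative of SOX17 known from vessel development, had 6.17 and 7.58 TPM with shScr and 18.8 and 14.4 with shUHRF1 in UF1hypo. It rose there by a log2 fold change of 1.15 ± 0.24 (limma, adjusted p = 0.0156), the only call among the 4 tested in UF1hypo, and had 4.84 and 6.91 against 6.43 and 5.93 TPM in HCT116 (limma, adjusted p = 1.00). The difference between these effects was 1.08 ± 0.34 and did not pass (limma, adjusted p = 0.121). On knockdown in UF1hypo, 8.53% of all genes tested were called. SOX8, the SoxE relative of SOX9, had 5.45 and 4.91 TPM under shScr against 2.34 and 3.27 under shUHRF1 in HCT116, and 3.72 and 5.36 TPM against 2.07 and 2.35 in UF1hypo. Its hairpin libraries lay below the controls in both lines without being called (limma, adjusted p = 0.535 in HCT116 and 0.0663 in UF1hypo).

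Among 14 POU, PAX and TCF partners of SOX proteins, 8 were tested in HCT116 and none was called, and of 9 tested in UF1hypo 1 rose. For these and the neural genes below, 0.0708% of all genes were called in HCT116 and 8.53% in UF1hypo. The partner that rose was PAX6, a neural and eye regulator and partner of SOX2, which went from 3.19 and 1.99 TPM to 10.4 and 11.9 (log2 fold change 1.77 ± 0.23, limma, adjusted p = 0.00172). The median log2 fold change was -0.03 in HCT116 and 0.24 in UF1hypo, beside -0.03 and 0.04 over all genes. PAX6 also stands in a list of 14 neural genes, in which 2 of 5 tested rose in UF1hypo and 0 of 4 in HCT116, with medians of 0.62 and 0.26. The other was NES, which encodes the progenitor filament nestin, with 11.0 and 10.2 TPM with shScr and 25.5 and 25.7 with shUHRF1 in UF1hypo (limma, adjusted p = 0.00456).

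Of 16 pluripotency genes, the program in which SOX2 acts, 1 of 6 tested rose in UF1hypo and 0 of 4 in HCT116. LIN28B, which blocks let-7 maturation, had 2.1 and 1.76 TPM in the UF1hypo libraries with shUHRF1 and was at 0 in those with shScr (limma, adjusted p = 0.00120). The median log2 fold change was 0.33 in UF1hypo and -0.12 in HCT116. MYC, listed here and with the crypt genes, was lower in UF1hypo than in HCT116 under shScr, with 252 and 217 TPM against 485 and 493 (limma, adjusted p = 0.00396), and it was the only gene called in either list (of 4 and 11 tested) in that comparison, where 3.54% of all genes were called.

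Of 13 endoderm genes, the program of SOX17, 2 of 7 tested rose in UF1hypo and 0 of 6 in HCT116. The shares called over all genes were 8.53% and 0.0708%. GATA4 was listed at 0 in the other 6 libraries and at 2.47 and 3.10 TPM in UF1hypo shUHRF1 (limma, adjusted p = 0.000434). The study already named GATA4, and TFF3 below, among genes with promoter hypermethylation that this knockdown re-activated in UF1hypo. GATA6 had 4.25 and 4.35 TPM with shScr and 10.5 and 12.8 with shUHRF1 in UF1hypo (limma, adjusted p = 0.00570). The median was 0.49 in UF1hypo and -0.15 in HCT116. SOX17 itself stayed under 1 TPM in those libraries. Under shScr, where 3.54% of all genes were called, 2 of 6 were lower in UF1hypo than in HCT116, among them PRDM1 by a log2 fold change of -2.08 (limma, adjusted p = 0.00140).

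For SOX9, genes of the intestinal crypt and of intestinal differentiation were read. Of 11 crypt genes tested, 2 rose and 1 fell in UF1hypo (median log2 fold change 0.16) and 0 were called in HCT116 (median -0.04). Among all genes tested, 8.53% were called in UF1hypo and 0.0708% in HCT116. AXIN2, a feedback inhibitor and target of WNT signaling, went from 3.99 and 4.81 TPM to 23.1 and 15.9 in UF1hypo (limma, adjusted p = 0.00128) and had 6.93 and 6.98 against 15.4 and 12.98 in HCT116, where it was not called. EPHB2, a receptor of crypt base cells, went from 5.57 and 7.75 TPM to 18.3 and 11.4 (limma, adjusted p = 0.0363). CD44, a surface glycoprotein of crypt cells, fell from 326 and 319 TPM to 134 and 188 (limma, adjusted p = 0.00884).

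Of 8 differentiation genes tested in UF1hypo, 3 rose and 1 fell, and of 7 tested in HCT116 none was called, with medians of 0.37 and -0.15. Calls over all genes made up 8.53% in UF1hypo and 0.0708% in HCT116. KRT20, a keratin of mature colonocytes, went from 9.28 and 9.06 TPM to 75.0 and 111 (limma, adjusted p = 7.51e-05). TFF3, a goblet cell trefoil factor, was listed at 0 in the other 6 libraries and at 3.5 and 1.2 TPM in UF1hypo shUHRF1 (limma, adjusted p = 0.00985), and DPP4, a brush border peptidase, fell from 7.97 and 8.05 to 0.597 and 0.879 TPM (limma, adjusted p = 0.000213). Under shScr, 3 of 7 were called, beside 3.54% of all genes: KRT20 was higher in UF1hypo than in HCT116, and HNF4A and CA2 were lower by log2 fold changes of -2.74 and -2.04 (limma, adjusted p = 0.000979 and 0.00156).

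SOX4 is a known target of TGF-beta signaling, and all 15 genes of a TGF-beta and SMAD list were tested. None was called in HCT116, where the median log2 fold change was 0.15, and 2 rose in UF1hypo, where it was -0.01. Among them was SMAD7, an inhibitory SMAD, which went from 18.9 and 17.3 to 46.0 and 46.9 TPM (limma, adjusted p = 0.00408). Under shScr, 4 of the 15 were higher in UF1hypo, beside 3.54% of all genes called, led by ID3 with 250 and 261 against 727 and 787 TPM and SMAD7 (limma, adjusted p = 0.000576 and 0.00368). No partner and no neural gene was called between the shScr groups, of 8 and 4 tested. The lists were chosen with earlier results of these data known, and their calls on knockdown stand beside the 8.53% of genes called in UF1hypo and the 0.0708% in HCT116.

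All 8 libraries came from HCT116 or a clone of it in culture, so the marker sums describe RNA of these lines and are not evidence of other cell types. A change in the share of cells within a line and in RNA per cell cannot be told apart in bulk libraries. The summed TPM of 8 fibroblast markers was 43.3 to 72.0 in UF1hypo shUHRF1 and 21.3 to 28.9 in the other groups, 2 and 1 of 8 markers being above 1 TPM, with COL1A1 the highest. That of 8 leukocyte markers was 79.8 to 110 in UF1hypo shUHRF1, 41.1 to 43.5 in UF1hypo shScr, and 7.55 to 15.2 in HCT116, and only CD68 was above 1 TPM in both libraries of any group. That of 8 neural and glial markers was 48.1 to 49.1 in HCT116 shScr, 38.8 to 43.0 in HCT116 shUHRF1, 32.1 to 32.3 in UF1hypo shScr and 21.9 to 26.7 in UF1hypo shUHRF1. The part of these genes in the SOX values was not tested.

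Genes whose log2(TPM + 1) followed that of a SOX gene most closely over the 8 libraries were ranked among 6935 or 6936 genes with a range of at least 1. For SOX4 these were SESTD1 (Pearson r = 0.983), MAGI1 (0.981), PIMREG (0.976), PDLIM5 (0.976) and ADGRG6 (0.974). SESTD1, for example, had 4.42 and 3.58 TPM under shScr against 7.87 and 6.22 under shUHRF1 in HCT116, and 2.95 and 3.15 TPM against 0.849 and 1.46 in UF1hypo, the same order of groups as SOX4. The closest gene was NINL for SOX9 (0.981), EIF4EBP1 for SOX12 (0.983), RNF31 for SOX13 (0.978) and RASIP1 for SOX15 (0.956). The 8 points are 4 groups of 2 libraries and share their depth and GC differences, so these values only describe likeness.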

How the data were processed

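RNA-seq of 8 libraries (4 groups of 2, grouped by the sample labels) was analysed from the gene tables the authors deposited. Per the labels and the submitters' processing notes, paired-end reads were handled with HISAT2 2.0.4 and StringTie 2.1.4 on GRCh38. For each gene the authors deposited TPM, FPKM and mean coverage, a signal in reads per base; no read counts were given, so no count model was run. Depth (aligned bases) was taken as the most common ratio of coverage to FPKM over genes with FPKM over 1, the ratio of a gene with 1 transcript. Between 10.9% and 13.1% of those genes lay at that ratio in a library. TPM sums to 1000000 per library, so a value depends on all other genes.

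Protein-coding genes (19960 of 60649 identifiers, by GENCODE version 44) with TPM over 1 in at least 1 library of a comparison were tested on log2(TPM + 1) with limma 3.58.1 in R 4.3.3, with a mean-variance trend, all 8 libraries in 1 fit (4 residual degrees of freedom) and Benjamini-Hochberg adjustment. This fit shares 1 estimate of the spread over all groups. The SD of replicate differences was 0.637 in UF1hypo shUHRF1 and 0.282 to 0.305 in the other groups. The shared spread may thus understate that of the UF1hypo knockdown. A pseudocount of 1 understates changes of low genes. A gene was called at adjusted p under 0.05 and absolute log2 fold change over 1. The fit was also run on simulated data with known changes, and the outcome is not reported here. With 2 against 2 libraries, an exact permutation test cannot go below p = 0.33 and was not used.

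The members and the gene lists were chosen with earlier results of these data known. Named genes were the members, UHRF1 and DNMT1, at most 2 called genes per list and direction with the largest change, the 5 genes most like SOX4 and the 1 most like each other expressed member; some genes that this rule names are not reported here, and further genes are said to be singled out after their values were seen. Alternatives were another pseudocount, no TPM filter, all annotated genes, the libraries of a comparison alone, FPKM, median-ratio scaling, quantile normalization, no trend, a replicate block, a GC correction, both together, and leaving out each replicate. The GC correction removed medians within 10 bins of transcript GC content and then within 10 bins of transcript length. Promoter sequences came from RefSeq (GRCh38.p14), for SOX2, SOX4, SOX12, SOX13 and SOX21.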

Additional observations from a re-analysis of the deposited data

Results flagged for a closer look

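The knockdown effects on SOX4 in the 2 lines differed: the effect in UF1hypo minus that in HCT116 was -2.70 on the log2(TPM + 1) scale, with 107 and 100.3 TPM against 42.9 and 40.8 in HCT116 and 6.11 and 8.81 against 22.2 and 20.2 in UF1hypo. It ran from -2.93 to -2.46 over the alternatives that left out 1 library and from -2.91 to -2.58 over the others. The member set was chosen by this difference, so the value is a description.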

How the results depend on the processing

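With 2 libraries per group, counts of called genes moved with the settings more than the SOX4 values did; the cause was not tested. Where a replicate was left out, the lone library of that group was assumed to vary like the other groups. In HCT116 the 9 called genes became 30 with a pseudocount of 0.1, 2 with no TPM filter, 3 with all annotated genes, 89 with the contrast libraries alone, 3 with median-ratio scaling, 5 with no trend, 1 with the replicate block, 76 with the GC correction, 73 with both, and 0 without any 1 replicate (382 to 596 genes had an unadjusted p under 0.05 by limma there). The 0 called members became 1 with the HCT116 libraries alone, quantile normalization, the GC correction, or the GC correction with the block. In UF1hypo the 1162 calls became 563 with its libraries alone and 748 with FPKM, and 655 to 2255 without 1 replicate, the lowest without UF1hypo shScr replicate 1 and the highest without UF1hypo shUHRF1 replicate 2; the 2 called members, which the knockdown itself chose and which are counted as a description, became 1 with no TPM filter, 0 with the libraries alone, 1 with quantile normalization, and 1 to 2 without 1 replicate (SOX15 was lost without UF1hypo shScr replicate 1 or 2 or UF1hypo shUHRF1 replicate 1). For the difference between the lines, 702 calls became 448 with a pseudocount of 0.1 and 171 to 2142 without 1 replicate, the highest without UF1hypo shUHRF1 replicate 2, and the 1 called member became 2 (SOX15 added) with the GC correction and block and 1 to 2 without 1 replicate; a fit of contrast libraries alone does not apply there, as all 8 enter. Under shScr, 455 calls became 149 to 190 without 1 replicate. The small differences of SOX9 (0.10) and SOX13 (0.09) under shScr changed sign: SOX9 ran from -0.15 to 0.35 without 1 replicate, and SOX13 from -0.0240 to 0.196, and was -0.0908 with the GC correction, with or without the block. Quantile normalization moved the UF1hypo split from 1007 higher and 155 lower to 669 and 335, and the GC correction moved the HCT116 split from 6 and 3 to 53 and 23.

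Replicate numbers did not pair the libraries: the deviations of same-numbered libraries correlated at 0.0547 between the HCT116 groups, 0.0258 between the shScr groups and -0.402 between the UF1hypo groups over 13781 genes. The replicate block gave 1110 calls in UF1hypo, 471 for the difference and 369 under shScr, and the crossed pairing, added after seeing the data, gave 1207 in UF1hypo.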
